A study of Mus musculus with 10 samples.

Results

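The nuclear genome encodes most subunits of the 5 complexes of the mitochondrial respiratory chain, and the RNA of these subunits was examined in mouse liver. Members were the protein-coding genes whose symbols start with Ndufa, Ndufb, Ndufc, Ndufs, Ndufv, Uqcr, Cox4i, Cox5, Cox6, Cox7, Cox8 or Atp5, without the Ndufaf assembly factors, together with Sdha to Sdhd and Cyc1. The rule gave 87 genes, of which 86 were among the 41388 genes of the expression tables. They comprised 38 genes of complex I, 4 of complex II, 9 of complex III, 18 of complex IV and 17 of complex V. A second gene annotated as Atp5o was not analysed here. The rule follows symbols, so it also took in Ndufa4, which is now assigned to complex IV, Cox7a2l, a factor that joins complexes III and IV, and Atp5s, a coupling factor.

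Complexes I and II feed electrons from NADH and succinate into the quinone pool, complex III passes them to cytochrome c, and complex IV reduces oxygen. Complexes I, III and IV pump protons, and complex V, the ATP synthase, uses the gradient to make ATP. Subunits from the nuclear genome are imported and assembled with the few core subunits that the mitochondrial genome encodes, and hepatocytes are rich in mitochondria because they oxidize fatty acids and make glucose and urea.

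The study asked whether the direction of a cross between an obese and a lean mouse line matters for obesity in the offspring. Liver RNA was sequenced from 10 mice of 10 weeks. The lines were BFMI860-12/Hber (BFMI), which is obese, and C57BL/6NCrl (B6N). The F1 males fell into 2 reciprocal groups of 3, matBFMI with the dam from BFMI and patBFMI with the dam from B6N, and each male of a group had another mother. In addition, 1 male and 1 female of each inbred line, BFMI and B6N, were sequenced. F1 males ate a high fat diet from day 21 to day 70, and the sources used here disagree on whether the inbred mice had a high fat or a standard breeding diet. Lane 6 of the sequencer held the matBFMI libraries and lane 5 those of patBFMI, and the effects of lane and cross cannot be told apart. The BFMI male was on lane 1 and the other inbred libraries were on lane 4.

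The libraries held 46988713 to 96023811 reads assigned to genes, and the BFMI male was the deepest. The members took 0.740% to 0.930% of these reads, and in every library the largest part of it, 0.283% to 0.354%, fell to complex V. Hepatocyte markers such as albumin summed to 76690 to 101500 CPM in every library, where CPM are read counts scaled to a common library total by TMM, and 4 fat cell markers to at most 0.6 CPM. One patBFMI library had counts in 32421 genes, against 22095 to 26694 in the other F1 libraries.

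The levels of the members spanned more than 3 orders of magnitude per length. On the scale of RPKM, which are reads scaled for depth and for the length of the exons, as deposited after quantile normalization, the highest was Atp5a1, the alpha subunit of the ATP synthase, at a mean of 317.6 over the 10 libraries. The next were Ndufa4 at 288.0 RPKM and Cox6b1, a small subunit of complex IV, at 240.9 RPKM. The lowest of the 81 members with enough reads for a test was Cox6b2, the testis form of the same subunit, at 0.192 RPKM. Complex I had a median of 32.7 RPKM over 38 genes and ranged from Ndufa4l2 at 0.951 to Ndufa4. Complex II ranged from Sdhc, a membrane anchor, at 34.7 RPKM to Sdhd, the other anchor, at 129.3 RPKM. Complex III ranged from Uqcrq at 38.6 RPKM to Uqcr10, another small subunit, at 130.2 RPKM. In complex V the lowest was Atp5s, at 2.46 RPKM. The length by which the RPKM divide was estimated from the reads and the RPKM. Cox6b2, Cox7a1 and Ndufa4l2 had too few reads for this estimate. It was over 3 times the length of the principal transcript for 9 of the 81 members. For others it was shorter, such as Atp5l at 467 against 544 bases. The order of the members by RPKM and by reads per base of the principal transcript had a Spearman correlation of 0.869 over these 81 genes, which share the same reads.

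**Figure D1:**
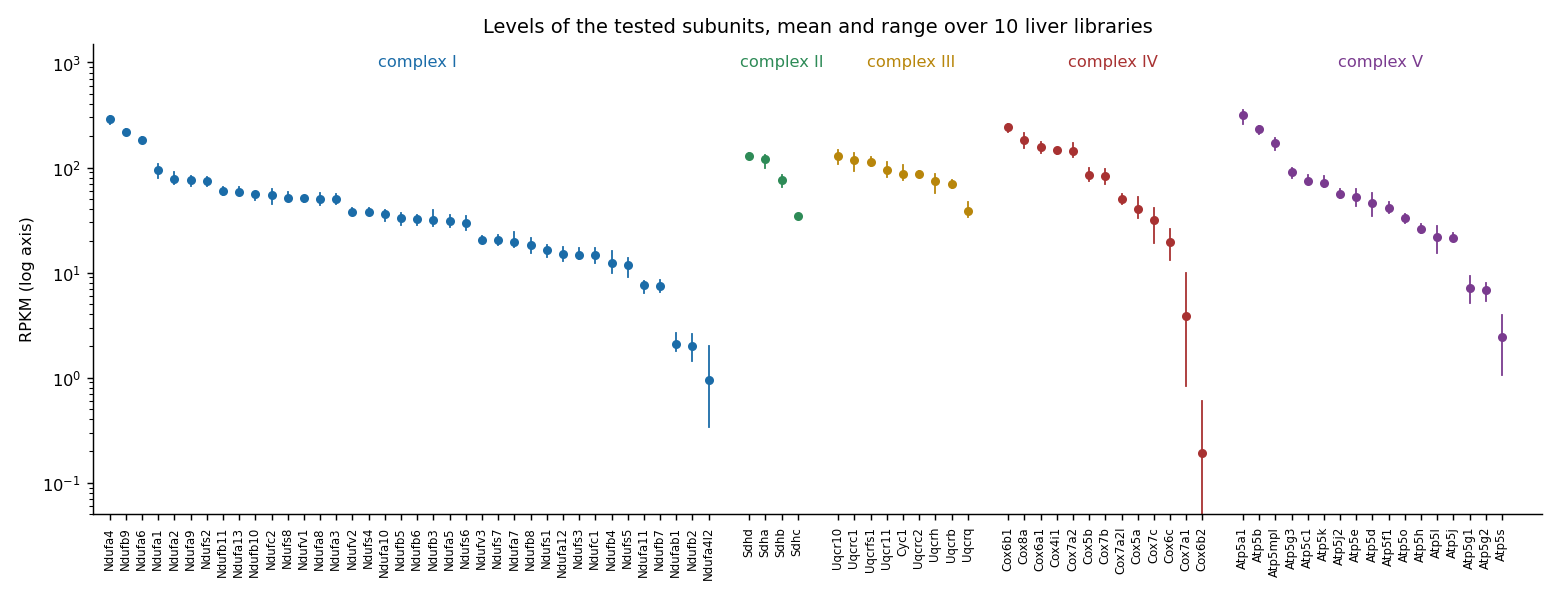
RPKM (log axis) of each of the 81 tested members, grouped by complex and sorted within it; points are means over 10 libraries and lines run from the lowest to the highest library, leaving the axis for Cox6b2, which was at 0 in 1 library. Atp5a1 is the highest at 317.6 and Cox6b2 the lowest at 0.192.

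Several subunits of complex IV and the c subunit of the ATP synthase exist as isoforms from separate genes, and the liver used 1 of them far above the others in most families. Cox4i1 had a mean of 145.6 RPKM and Cox4i2, the form induced by low oxygen, 0.137 RPKM. Cox6a1, the liver form, was at 158.0 RPKM and Cox6a2, the heart and muscle form, at 0.0705 RPKM. Cox8a was at 183.7 RPKM, the muscle form Cox8b at 0.200 RPKM and Cox8c at 0.0118 RPKM. Cox7a2, the widely used form of subunit 7a, was at 143.8 RPKM, Cox7a2l at 50.3 RPKM and Cox7a1, the heart and muscle form, at 3.87 RPKM. Cox7b was at 83.3 RPKM, and Cox7b2 at 0.0083 RPKM. The lowest library of each leading form was above the highest library of every other form of its family. Cox4i2, Cox6a2, Cox7b2, Cox8b and Cox8c had too few reads to be tested in any comparison, each with at most 13 reads in any library, and Cox6b2 had too few for the comparison of the F1 groups.

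The muscle forms were not spread evenly over the libraries. Cox8b had 13, 0 and 1 reads in the matBFMI males, 0, 3 and 0 in the patBFMI males, 4 and 2 in the BFMI male and female, and 2 and 1 in the B6N male and female. Cox6a2 had 9 reads in the first matBFMI male and at most 3 in any other library. The 8 skeletal or heart muscle markers, among them the actin Acta1 and the creatine kinase Ckm, summed to 21.7 CPM in that same library and to 0.4 to 3.1 in the other 9. Acta1 alone had 436 reads there, against 82 in the next library. The part of muscle RNA in the Cox6a2 and Cox8b reads was not tested.

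The 3 genes of the c subunit make the same mature protein and differ in the leader that is removed on import. Atp5g3 led with a mean of 91.3 RPKM, and Atp5g1 at 7.06 RPKM and Atp5g2 at 6.81 RPKM overlapped between libraries. These levels leave out reads counted to pseudogenes, which came to 218.9% of the reads of Atp5g1 and 531.7% of those of Atp5g2. No near copy of Atp5g3 was found. The RPKM of Atp5g1 divide by about 4735 bases, against 1533 for Atp5g2 and 2198 for Atp5g3. The 250 bases before the starts of the 3 genes are shown because their RPKM differ while their product does not. Those of Cox7a1 are shown too, as it differed between the inbred lines. The sequences are from RefSeq on GRCm38.p6, in the direction of transcription, and capitals mark a match to a motif of a factor known to act on mitochondrial genes. The windows are chr11:96075632-96075881 (minus strand) for Atp5g1, chr15:102671048-102671297 (minus strand) for Atp5g2, chr2:73911327-73911576 (minus strand) for Atp5g3 and chr7:30183921-30184170 (plus strand) for Cox7a1.
Atp5g1 promoter: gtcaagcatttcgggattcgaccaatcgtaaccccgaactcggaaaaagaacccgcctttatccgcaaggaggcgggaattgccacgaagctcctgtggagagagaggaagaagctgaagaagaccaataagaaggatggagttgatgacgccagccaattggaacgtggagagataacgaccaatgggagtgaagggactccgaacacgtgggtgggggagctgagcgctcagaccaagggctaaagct
Atp5g2 promoter: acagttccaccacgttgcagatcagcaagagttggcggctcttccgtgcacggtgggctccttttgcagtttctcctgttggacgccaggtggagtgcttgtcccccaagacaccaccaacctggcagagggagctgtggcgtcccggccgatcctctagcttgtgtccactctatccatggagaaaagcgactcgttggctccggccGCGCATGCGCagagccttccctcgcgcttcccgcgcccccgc
Atp5g3 promoter: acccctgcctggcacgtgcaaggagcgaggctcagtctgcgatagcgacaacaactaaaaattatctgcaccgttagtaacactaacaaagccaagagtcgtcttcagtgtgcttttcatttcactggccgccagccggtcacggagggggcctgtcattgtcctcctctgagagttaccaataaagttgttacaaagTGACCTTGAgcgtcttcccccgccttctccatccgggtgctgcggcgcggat
Cox7a1 promoter: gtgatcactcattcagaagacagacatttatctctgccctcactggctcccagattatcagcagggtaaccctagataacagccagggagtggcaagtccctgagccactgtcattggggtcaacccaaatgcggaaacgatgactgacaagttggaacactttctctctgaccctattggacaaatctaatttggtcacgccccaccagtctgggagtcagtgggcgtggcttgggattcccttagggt
The Atp5g2 window holds the NRF1 motif, a palindrome spelled by its capitals, from base -42, and the Atp5g3 window holds the ERR motif, TCAAGGTCA, on the other strand from base -52. Neither these motifs nor those of YY1, GABP and CRE were in the Atp5g1 and Cox7a1 windows. Windows that also took in the 50 bases after the start were found for 67 of the 86 members, which had 72 starts. NRF1 letters on either strand were in 5 of the 72 member windows, or 6.94%, against 0.971% of all windows in the table and 1.33% of those of protein-coding genes. The YY1 motif AAGATGGCG was in 9.72% of member windows against 1.40% of all and 1.83% of protein-coding ones, and the ERR motif in 2.78% against 0.423% and 0.334%. The CRE motif TGACGTCA was in 5.56% against 1.79% and 2.23%, and the GABP motif CCGGAAGT in 6.94% against 3.89% and 5.15%. The Sp1 letters GGGCGG were in 38.9% of member windows, in 35.7% of all and in 46.2% of protein-coding ones. The CCAAT letters were in 41.7%, 37.4% and 38.2%, and the TATA letters TATAAA in 11.1%, 13.6% and 12.6%. Motifs were searched on both strands, and the windows are a description of letters, not of binding.

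The first comparison was between the reciprocal F1 males. None of the 80 tested members passed an adjusted p of 0.05 in edgeR's quasi-likelihood test, in either direction, while over all 16797 genes tested 0.0953% were higher and 0.0476% lower in matBFMI. At an unadjusted p of 0.05, 1 member was higher and none lower, against 5.14% and 4.7% of all genes. DESeq2 and limma called none either. All 80 members lay within 0.5 of 0 on the log2 scale, as did 91.1% of all genes, and the median standard error of a member was 0.10. The median log2 fold change of the members was 0.03, with 51 of 80 above 0, beside a median of -0.01 over all genes.

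By complex, the medians of matBFMI minus patBFMI on the log2 scale were 0.06 for complex I, 0.07 for complex II, 0.07 for complex III, 0.02 for complex IV and -0.03 for complex V. In complex II all 4 genes were on the positive side and in complex V 4 of 17. Leaving out the second patBFMI male moved the median of all members to 0.12.

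Cox5a, a subunit of complex IV on the matrix side, had the smallest p. Its levels were 26.8, 29.1 and 37.5 CPM in the matBFMI males and 22.6, 28.5 and 23.7 CPM in the patBFMI males. The groups overlapped. The log2 fold change was 0.31 ± 0.14 (SE, n = 3 and 3), with an adjusted p of 0.499 in edgeR. Cox6c, another small subunit of complex IV, had the largest change of that complex in size, with 74.9, 53.0 and 55.7 CPM against 62.9, 92.4 and 75.6 CPM. Its log2 fold change of -0.34 ± 0.17 had an adjusted p of 0.552, and the groups overlapped here too. Only Atp5g2 had groups that did not overlap, where 8.25% of all genes did so on the same side and 7.07% on the other, with 12.3, 11.6 and 14.0 CPM in matBFMI and 10.7, 11.2 and 10.8 CPM in patBFMI. It was the largest change of complex V, at 0.19 ± 0.10 and an adjusted p of 0.555. With the reads of its 2 pseudogenes added, Atp5g2 had 72.8, 67.5 and 88.0 CPM in matBFMI and 73.6, 76.9 and 71.7 CPM in patBFMI, so that the groups overlapped and the log2 fold change was 0.03 ± 0.11.

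The largest changes of the other complexes were of like size. Ndufs5, a subunit of the membrane arm of complex I, was at 9.64, 10.3 and 12.1 CPM in matBFMI and 8.32, 10.3 and 9.15 CPM in patBFMI, a log2 fold change of 0.19 ± 0.11. Uqcrq of complex III had 66.6, 72.1 and 88.7 CPM against 60.2, 70.3 and 66.5 CPM, also a log2 fold change of 0.19. Sdha, the flavoprotein of succinate dehydrogenase, had 520.9, 501.5 and 560.2 CPM against 451.8, 553.6 and 477.7 CPM, a log2 fold change of 0.08. In all 3 the groups overlapped. Kupffer cell and macrophage markers summed to 207.5 to 238.0 CPM in matBFMI and 264.1 to 274.7 CPM in patBFMI. All 10 were lower in matBFMI, 7 of them at an unadjusted p under 0.05 in edgeR. Of 8 hepatocyte markers 5 were lower in matBFMI, 4 of them at that threshold, and 3 were higher. All 4 tested muscle markers were higher and 1 of 7 liver endothelium markers was lower at that threshold. The part of these cell types in the members' values was not tested. In whole liver, fewer cells of a type and less RNA per cell cannot be told apart.

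Males carry their only X chromosome from the mother, so that the 3 X-linked members came from BFMI in matBFMI and from B6N in patBFMI. Ndufa1 had 39.1, 40.3 and 35.01 CPM in matBFMI and 37.3, 44.5 and 36.9 CPM in patBFMI. Ndufb11 had 54.0, 50.7 and 57.5 CPM against 53.5, 62.5 and 52.0 CPM. Cox7b had 91.2, 105.1 and 104.1 CPM against 81.5, 123.3 and 91.5 CPM. Their log2 fold changes were -0.07 ± 0.10, -0.06 ± 0.10 and 0.01 ± 0.15, and each pair of groups overlapped. Between BFMI and B6N the same genes differed by -0.01 ± 0.14, 0.02 ± 0.14 and 0.24 ± 0.19 on the log2 scale, and none passed the test.

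**Figure D2:**
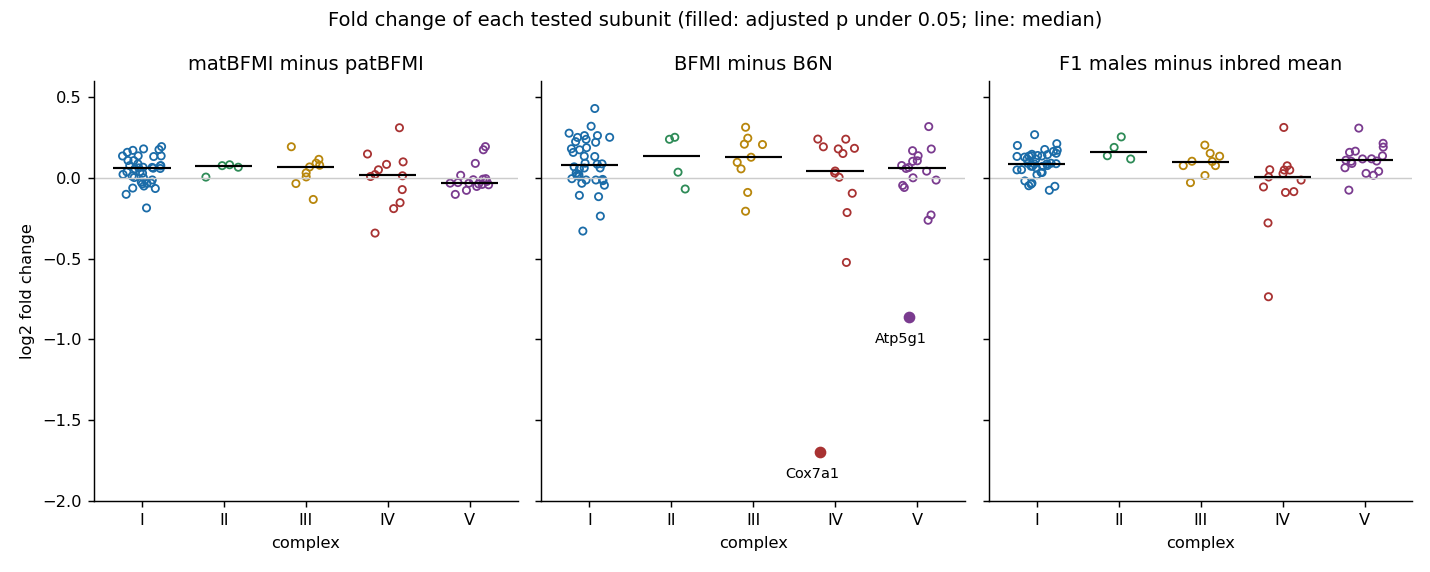
Log2 fold change of each tested member by complex, for matBFMI minus patBFMI, BFMI minus B6N and F1 males minus the inbred mean; filled points passed an adjusted p of 0.05 and lines are medians. All points of the first panel lie within 0.5 of 0, and Atp5g1 and Cox7a1 stand below the others in the second.

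BFMI and B6N were compared in 1 edgeR fit of all 10 libraries with a term for sex, in which most of the spread comes from the F1 males. Of 81 tested members 2 passed an adjusted p of 0.05, Atp5g1 and Cox7a1, both lower in BFMI. No member was called higher, whereas 3.61% of all 19974 genes were called higher and 3.05% lower. The members shifted slightly upwards, with a median log2 fold change of 0.07 and 57 of 81 above 0, beside -0.04 over all genes. The lines did not overlap for 26 members that were higher in BFMI and 5 that were lower, against 20.8% and 23.0% of all genes, with 2 mice in each line. At an unadjusted p of 0.05 there was 1 member higher and 3 lower, against 9.72% and 8.56% of all genes. The limma fit of the deposited RPKM called none of the 81. Leaving out any 1 of the BFMI male, BFMI female, B6N male or B6N female, after which the lone mouse of its line is assumed to vary like the other groups, ended both calls, with adjusted p of 0.0507 to 0.144 for Atp5g1 and 0.0728 to 0.200 for Cox7a1, and the median of the members then ranged from -0.11 without either female to 0.29 without the BFMI male and 0.26 without the B6N male.

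Cox7a1 was the member with the largest difference. It was at 0.36 and 0.49 CPM in the BFMI male and female, from 36 and 25 reads, and at 1.31 and 1.38 CPM in the B6N male and female, from 71 and 68 reads. The F1 males had 0.54, 0.42 and 0.64 CPM in matBFMI and 0.57, 0.45 and 0.77 CPM in patBFMI, so that all 6 lay below both B6N mice and above the BFMI male, with the BFMI female within their range. The log2 fold change of BFMI against B6N was -1.70 ± 0.35 (SE, n = 2 and 2), with an adjusted p of 0.0169 in edgeR. Muscle markers summed to 0.6 to 0.8 CPM in BFMI and 0.9 to 2.0 CPM in B6N, and Cox6a2 and Cox8b together had 2 reads in each B6N mouse and 7 and 3 in the BFMI mice. The first matBFMI male, which had the highest sum of the muscle markers, was at 0.54 CPM for Cox7a1. The part of muscle RNA in the Cox7a1 values was not tested. No other transcript was nearly identical to that of Cox7a1. On the deposited RPKM scale Cox7a1 was at 4.6 and 3.79 in the BFMI male and female and at 8.06 and 9.96 in the B6N male and female, so that the lines were in the same order. The F1 males had 2.54, 0.89 and 1.17 RPKM in matBFMI and 5.25, 0.829 and 1.64 RPKM in patBFMI, so that 5 of them lay below both BFMI mice, unlike on the CPM scale. The cause of this difference between the scales was not tested.

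**Figure D3:**
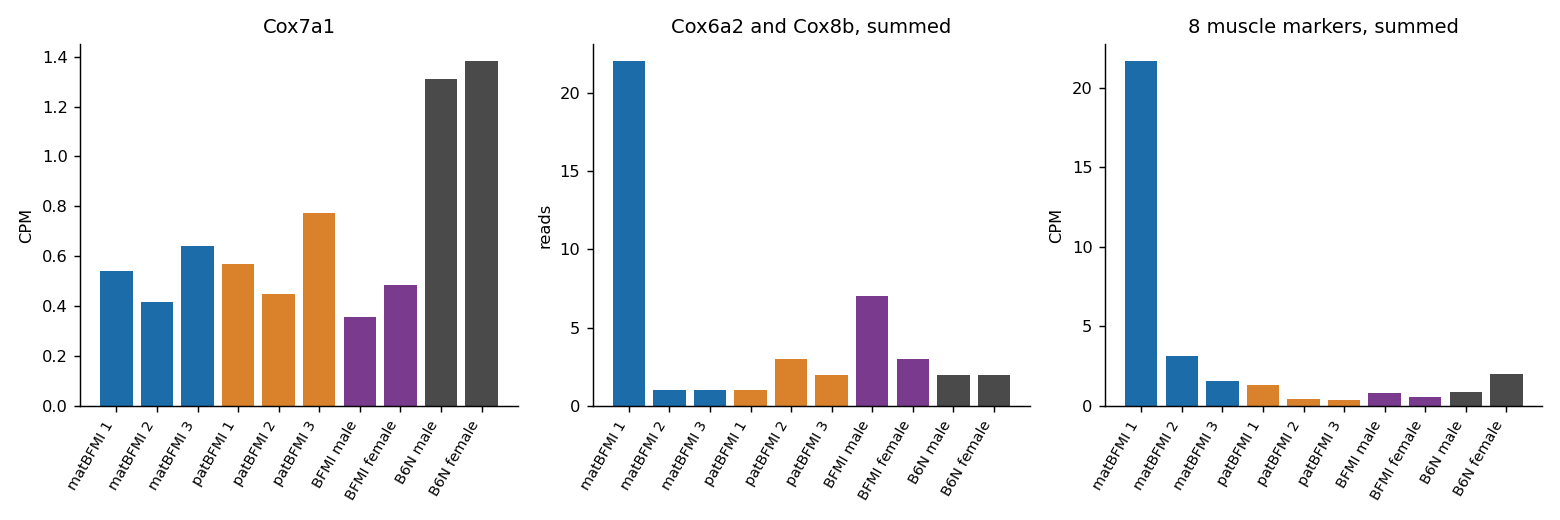
Cox7a1 in CPM, reads of the muscle isoforms Cox6a2 and Cox8b summed, and 8 muscle markers summed in CPM, 1 bar for each library. Cox7a1 is highest in both B6N mice at 1.31 and 1.38 CPM, while the muscle isoforms and markers are highest in the first matBFMI male.

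Atp5g1 was at 22.2 and 24.4 CPM in the BFMI male and female and at 43.3 and 41.5 CPM in the B6N male and female. The log2 fold change was -0.86 ± 0.16 with an adjusted p of 0.00811. The F1 males lay between the lines apart from a partial overlap with B6N, with 32.1, 30.5 and 42.4 CPM in matBFMI and 33.0, 36.2 and 33.7 CPM in patBFMI. The read counts of this gene cannot be taken alone. The processed pseudogene Gm10039 (chr11:100361716-100362126 on GRCm38) matches all 411 coding bases of Atp5g1 (chr11:96068852-96075670) but 1, G385A, where the first base is that of Atp5g1, positions count from the start codon and the last base is that of Gm10039. The last 72 coding bases are shown, with the differing base in capitals.
Atp5g1: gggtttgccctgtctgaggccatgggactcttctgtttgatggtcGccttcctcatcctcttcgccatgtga
Gm10039: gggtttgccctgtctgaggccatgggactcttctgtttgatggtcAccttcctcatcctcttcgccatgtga
Gm10039 was counted at 85.2 and 84.4 CPM in the BFMI mice and at 57.1 and 54.7 CPM in the B6N mice, so that it went the other way. The reads of both genes together came to 107.4 and 108.7 CPM in BFMI and to 100.4 and 96.2 CPM in B6N, a log2 fold change of 0.14 ± 0.16 with an adjusted p of 0.774. Atp5g1 held 20.7% and 22.4% of the joint reads in BFMI, 43.1% in each B6N mouse and 32.3% to 33.8% in the 6 F1 males, a band that did not meet either line. Atp5g1 was thus called only when its reads were counted apart from those of the copy.

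**Figure D4:**
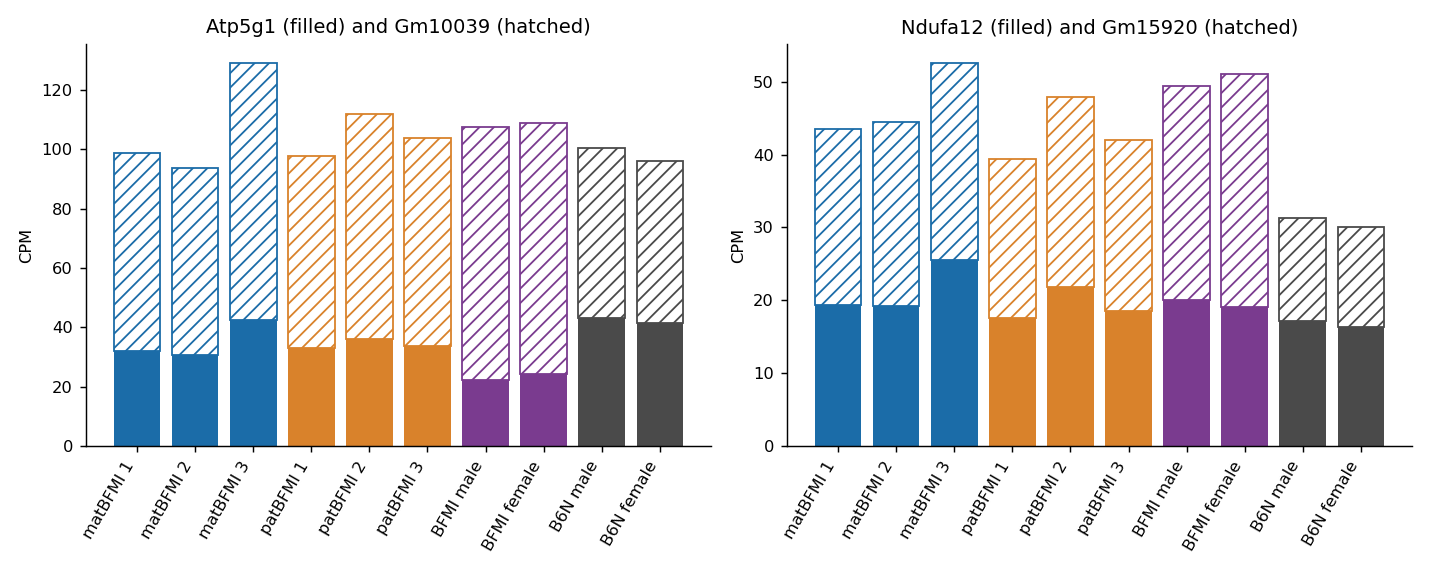
CPM of Atp5g1 and Ndufa12 (filled) and of their pseudogenes Gm10039 and Gm15920 (hatched), stacked for each library. The stacks of Atp5g1 are of like height in BFMI and B6N while the filled part differs, and the stacks of Ndufa12 are higher in BFMI at 49.4 and 51.0 CPM than in B6N at 31.3 and 30.02 CPM.

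Such matches were common. Other genes with at least 95% identity over at least 100 bases of the principal transcript were found for 35 of the 86 members. There were 61 of them, of which 38 were pseudogenes. The other 23 were not, and many of these match only a short stretch. Many are no copies but neighbours that share genomic bases with the member on the opposite strand, such as Braf with 146 bases of Ndufb2. Gm11273, annotated as protein-coding, matched 390 bases of Cox5b at 99.23% identity and held 82.77% of its reads. Only reads of annotated pseudogenes were added to members below, so those of Gm11273 were not added to Cox5b. Pseudogenes were found for 21 members, and for 12 of these they held more reads than the member. The strongest cases were Atp5l, a subunit of the membrane part of ATP synthase, whose pseudogenes held 997.7% of its reads, Atp5g2 at 531.7% and Ndufs5 at 314.8%. Adding the reads of each pseudogene to its member, an alternative chosen after the data were seen, left the F1 comparison with no called member. In that fit the log2 fold change of Cox6c between the F1 groups went from -0.34 to -0.08. The 2 Cox6c copies had 61.1, 80.99 and 74.8 CPM in matBFMI and 65.0, 59.5 and 63.0 CPM in patBFMI, the reverse of the order of Cox6c.

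Between BFMI and B6N the same step removed Atp5g1, kept Cox7a1 and added Ndufa12, an accessory subunit of complex I. Ndufa12 itself was at 20.1 and 19.0 CPM in BFMI and 17.2 and 16.3 CPM in B6N, a log2 fold change of 0.22 ± 0.16 with an adjusted p of 0.564. Its pseudogene Gm15920 (chr5:130188395-130188796) was at 29.3 and 32.0 CPM in BFMI and 14.2 and 13.7 CPM in B6N, a log2 fold change of 1.14 ± 0.12 with an adjusted p of 3.31e-04. The sum had a log2 fold change of 0.71 ± 0.13 with an adjusted p of 0.0101. The F1 males were at 39.4 to 52.6 CPM, above both B6N mice and overlapping BFMI. The pseudogene differs from the coding bases of Ndufa12 (chr10:94198720-94221443) at A135G and T414C over 402 aligned bases, and the stretch around the first is shown with that base in capitals.
Ndufa12: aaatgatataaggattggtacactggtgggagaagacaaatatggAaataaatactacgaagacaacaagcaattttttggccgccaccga
Gm15920: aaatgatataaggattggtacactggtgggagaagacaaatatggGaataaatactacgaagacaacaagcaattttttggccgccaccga
The 2 pseudogenes of Ndufab1, the acyl carrier protein of complex I, were also called higher in BFMI. Gm4459 had a log2 fold change of 0.62 ± 0.16 and Ndufab1-ps one of 0.53 ± 0.14, while Ndufab1 with both added was at 0.51 ± 0.15 and did not pass, with an adjusted p of 0.0762.

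The largest strain differences in the other complexes did not pass. Ndufb8, of the membrane arm of complex I, was at 62.7 and 63.9 CPM in BFMI and 45.9 and 48.1 CPM in B6N, with a log2 fold change of 0.43 ± 0.13 and an adjusted p of 0.0803. DESeq2 and the filter that asks for 10 reads in every library called it. Ndufc2, a further membrane arm subunit, was at 30.8 and 37.3 CPM against 44.6 and 40.6 CPM, a log2 fold change of -0.33 ± 0.12 and an adjusted p of 0.145. Sdha was at 461.3 and 492.8 CPM against 433.7 and 369.8 CPM, and its log2 fold change of 0.25 ± 0.15 had an adjusted p of 0.444. Uqcr10 was at 75.5 and 85.0 CPM against 71.0 and 58.5 CPM, and its log2 fold change of 0.31 ± 0.15 had an adjusted p of 0.299. Kupffer cell and macrophage markers summed to 247.2 and 317.1 CPM in BFMI and 412.7 and 438.4 CPM in B6N, with 4 of 10 called lower, and 2 of 4 erythroid markers were called higher in BFMI. Of the other cell type lists, Lyve1 among 7 liver endothelium markers was called lower in BFMI, and none of 6 stellate cell, 4 bile duct, 8 hepatocyte and 8 muscle markers or the 1 tested fat cell marker was called. The part of any of these cell types in the members' values was not tested.

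The strain difference of the members was not alike in the pair of males and the pair of females. In the males the median log2 difference of BFMI minus B6N was -0.10, with 28 of 81 members above 0. In the females it was 0.25, with 74 of 81 above 0, while all genes had medians of 0.02 and -0.05. Each complex had a negative median in males, from -0.14 in complex V to -0.05 in complex II, and a positive one in females, from 0.22 to 0.32. With 1 mouse of each line and sex these values have no replicates. Both females and the B6N male were on lane 4 and the BFMI male, the deepest library, on lane 1, so that lane differed within the male pair alone and cannot be told apart from line there. A strain by sex term in the fit of all 10 libraries called none of the 81 members, with a smallest adjusted p of 0.169, against 0.015% of all genes in each direction. At this term 12 members were at an unadjusted p under 0.05, all with the larger BFMI minus B6N difference in females, against 3.92% of all genes on that side and 3.95% on the other.

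The 2 smallest p of that term belonged to Cox7c and Cox6c, which are named because of their values. Cox7c was at 18.8 CPM in the BFMI male, 44.0 in the B6N male, 35.9 in the BFMI female and 31.5 in the B6N female, and the BFMI male was below all 9 other libraries. In a fit of the male libraries alone the log2 fold change of Cox7c was -1.23, from 1 male of each line, which is no replicated comparison of the lines. Its 2 pseudogenes together had 110.5 CPM in the BFMI male, the highest of the 10 libraries, so that the summed reads were 129.3 CPM there and 117.8 to 149.8 CPM elsewhere. Cox6c was at 56.8 and 86.7 CPM in the BFMI and B6N males and at 84.5 and 42.7 CPM in the females. With its copies it was at 141.6 and 152.0 CPM and at 149.6 and 120.2 CPM.

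Members moved together from library to library. Relative to each gene's mean over the 10 libraries on the log2 CPM scale, the second patBFMI male had 78 of 81 members above 0 with a median of 0.16, and the third matBFMI male 66 of 81 with a median of 0.13. The first patBFMI male had 8 of 81 above 0 with a median of -0.09, and the B6N female 10 of 81 with a median of -0.15. The BFMI mice lay on opposite sides, the male with 19 of 81 above 0 and a median of -0.11. The BFMI female had 67 of 81 above 0 with a median of 0.07. All genes tested had medians between -0.03 and 0.02 in every library. The SD of the members' median between mice of a group was 0.07 in matBFMI and 0.13 in patBFMI, and 0.13 in BFMI and 0.10 in B6N, where it is between a male and a female.

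**Figure D5:**
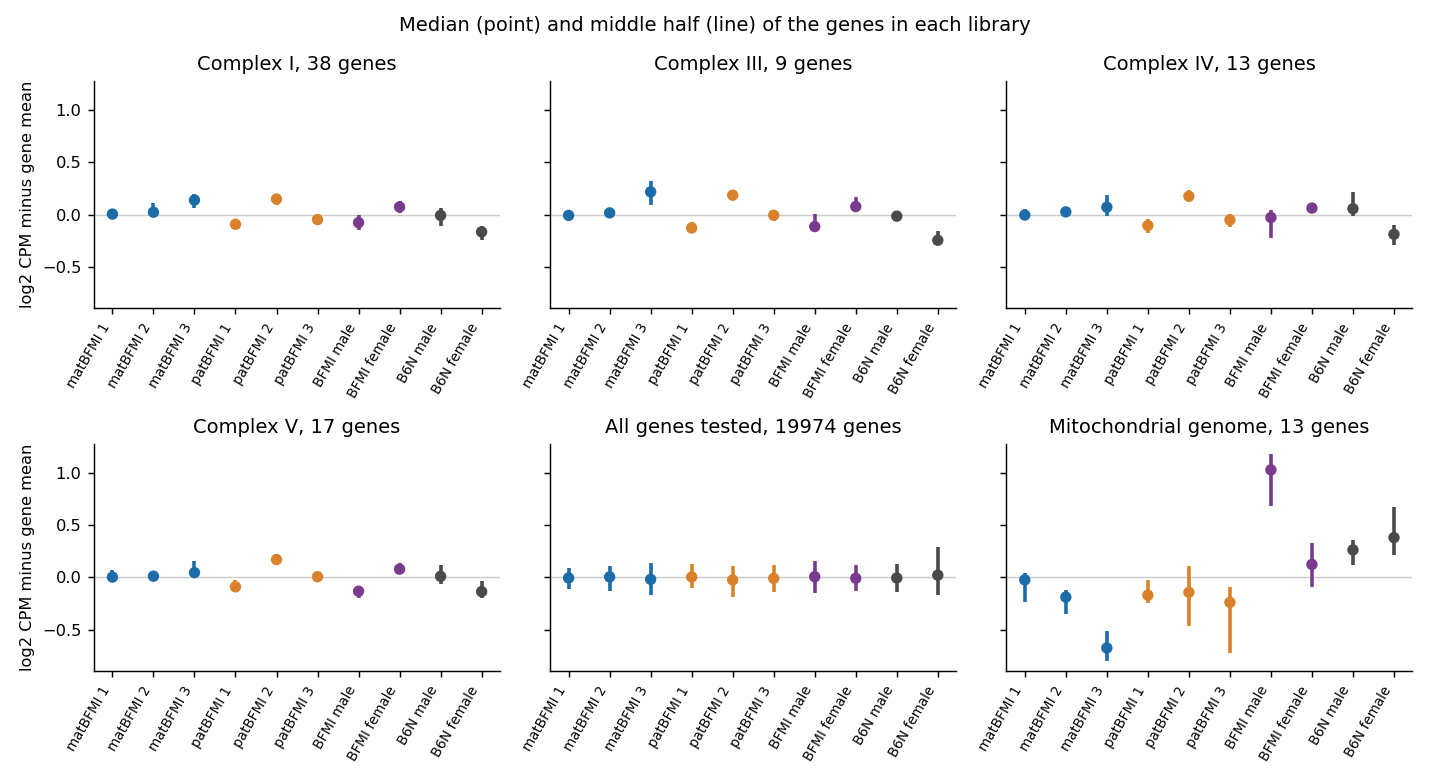
Median (points) and interquartile range (lines) of log2 CPM minus the gene's own mean over 10 libraries, for 4 of the complexes, all genes tested and the 13 subunits of the mitochondrial genome, coloured by group. The complexes share the high second patBFMI male and the low B6N female, and the mitochondrial subunits are highest in the BFMI male at 1.03.

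F1 males were then set against the mean of the inbred lines. All F1 libraries were on lanes 5 and 6 and all inbred libraries on lanes 1 and 4. Lane thus cannot be told apart from this contrast, nor can diet if the inbred mice ate the standard breeding diet. No member passed, where 1.14% of all genes were called higher and 0.916% lower, and at an unadjusted p of 0.05 there was 1 member higher and none lower, against 9.02% and 7.61%. The other tools, DESeq2 and limma, called none. The median log2 fold change was 0.09, with 67 of 81 members above 0, and it was 0.01 over all genes. Without the BFMI male it was -0.13 and without the B6N male 0.28, and with limma on the deposited RPKM it was -0.032. The direction of this median thus turned with the BFMI male and with the limma fit. In that fit both the tool and the input differ from the main fit, and their parts cannot be told apart. Atp5g2 was the member with the unadjusted p under 0.05, at 10.7 to 14.0 CPM in the F1 males and 9.85 and 10.2 CPM in BFMI and 9.15 and 8.64 CPM in B6N, with a log2 fold change of 0.31 ± 0.10 and an adjusted p of 0.178. All F1 males were above all inbred mice for Atp5g2 and for Ndufs7, a core subunit of complex I, and below them for no member, where 3.11% and 2.71% of all genes were so placed. On the RPKM scale the log2 difference of Atp5g2 was -0.14. With the reads of its pseudogenes added it was 0.34 ± 0.12, with an adjusted p of 0.193 in edgeR. In this comparison 4 of the 10 Kupffer cell and macrophage markers were called lower in F1 males and 1 of the 8 hepatocyte markers, Cps1 of the urea cycle, was called higher.

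The 13 subunits of the mitochondrial genome, which join the members in complexes I, III, IV and V, behaved otherwise in this comparison. All 13 were lower in F1 males, with a median log2 fold change of -0.90, and 2 were called, mt-Nd4l at -1.25 ± 0.23 and mt-Nd1 at -0.77 ± 0.15, both of complex I. mt-Nd1 was at 675.2, 634.4 and 561.5 CPM in matBFMI, 846.3, 956.7 and 853.0 CPM in patBFMI, 1382 and 762.5 CPM in the BFMI male and female and 1132 and 1125 CPM in the B6N male and female. Without the BFMI male, in which the 13 were highest, the median was -0.32, and without the B6N male it was -1.50. None was called with limma or without the BFMI male, the third matBFMI male or the third patBFMI male, and 1 without the second matBFMI male. The count was 7 with DESeq2 and without the first patBFMI male, 5 in males alone, 4 without the BFMI female, the B6N male or the B6N female and 11 without a filter on low counts. Between the F1 groups mt-Nd1 did not overlap and was lower in matBFMI, with a log2 fold change of -0.52 ± 0.10 and an adjusted p of 0.135. Females and males of the inbred lines were compared in the same fit, and no member passed, with a median of 0.01 while 0.31% of all genes were called higher in females and 0.245% lower. No member was at an unadjusted p under 0.05, against 3.83% and 3.96% of all genes. The 2 females lay above both inbred males for 1 member and below them for 4, against 13.8% and 11.3% of all genes, and 1 of the 4 erythroid markers, Alas2, was called lower in females. DESeq2 and limma called none there either.

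Genes that build or regulate the complexes were taken as lists beside the members. None of the 52 tested assembly factors passed between the F1 groups, nor did a gene of any other list. Between BFMI and B6N 4 were called higher in BFMI and 1 lower, where 3.61% and 3.05% of all genes were called. Ndufaf5, a methyltransferase for complex I assembly, was at 7.23 and 7.98 CPM in BFMI and 3.40 and 4.57 CPM in B6N, a log2 fold change of 0.95 ± 0.15. Cox18, which inserts a core subunit of complex IV into the membrane, was at 10.5 and 9.68 CPM against 6.23 and 4.41 CPM, or 0.94 ± 0.16. Fastkd3, an RNA-binding protein of mitochondria, differed by 0.65 ± 0.13 and Uqcc3, a complex III factor, by 0.52 ± 0.12. Lyrm7, the chaperone of the Rieske protein of complex III, was lower in BFMI at 0.38 and 0.35 CPM against 1.52 and 1.14 CPM, or -1.87 ± 0.27 with an adjusted p of 0.00223. These calls depended on the processing. Of 22 alternatives 17 called Ndufaf5 and Lyrm7, 16 Cox18, 13 Fastkd3 and 10 Uqcc3, and none of the limma settings called any of them. Leaving out the BFMI male or the B6N male ended the calls of Ndufaf5 and Lyrm7, leaving out either female ended that of Cox18, and leaving out any inbred mouse ended those of Fastkd3 and Uqcc3, the latter also without the first or second matBFMI male or the third patBFMI male. The Rieske gene Uqcrfs1 is itself a member and did not pass. Of 14 regulators of mitochondrial biogenesis only Polrmt, the mitochondrial RNA polymerase, was called, higher in BFMI by 0.45 ± 0.11 with an adjusted p of 0.0445 in edgeR. Only 7 of 22 alternatives called Polrmt, and among the fits without 1 library only that without the second patBFMI male did. None of the 6 tested genes of mobile carriers and electron entry, such as Etfdh at 0.42 ± 0.15 and Gpd2 at 0.27 ± 0.13, passed.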

How the data were processed

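Liver RNA of 10 mice was sequenced as paired ends from a RiboZero preparation, although the labels give polyA RNA as the molecule. Trimmomatic 0.32, Picard 1.99, Bowtie2 2.2.6 and TopHat2 2.10 are listed in the submitters' processing notes, and the study's methods describe another aligner. The authors deposited a table of raw counts for each Ensembl gene, and a second of RPKM, for which they had quantile normalized the samples. Both hold a further 3 columns that have no sample record and were not used.

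Symbols and positions were taken from GENCODE M21 on GRCm38 by identifier. The counts entered the quasi-likelihood test of edgeR 4.0.16 (R 4.3.3) with TMM scaling, Benjamini-Hochberg adjustment over all genes tested and a threshold of 0.05. The F1 fit used 6 libraries and kept genes that reached 10 counts in 3 or more. The other comparisons came from 1 fit of 10 libraries with a sex term, where 2 libraries had to reach 10 counts. Levels per library are CPM after TMM over all libraries, and levels are compared between genes only as RPKM. Standard errors are those of the fit, and p-values measure the spread between single mice. Copies of members were sought with BLAST 2.17.0. The YY1 motif searched was shortened to its core after a first search with a longer form. Alternatives were DESeq2 1.42.0, limma 3.58.1 on log2(RPKM + 1) and log2(RPKM + 0.1), other scalings, filters and sample sets, and fits without each library. In addition 2 were chosen after the data were seen, namely adding the reads of pseudogenes to their member, and a strain by sex term. Library depth limits most the members with few reads, such as Cox7a1.

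Members and lists were chosen with earlier results of these data known. The members named are those past the threshold, the highest and lowest RPKM of each complex, the largest change of each complex in the F1 and strain comparisons, X-linked members, isoforms of 1 subunit and members not tested. From the other lists, genes past the threshold and some of those with the smallest p are named. Cox5a, Cox7c, Ndufc2, Ndufa12, Ndufab1, Ndufs7, Atp5l and Uqcrfs1 were named after their values were seen, as was Cox6c for the term of strain by sex. The fits were also run on simulated counts with the same spread for all genes. Lane effects and genes that move together were not simulated, so these runs do not speak for either. Python 3.11.15 with numpy 2.4.6, pandas 2.3.3 and matplotlib 3.10.9 served for tables and plots.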

Additional observations from a re-analysis of the deposited data

Results flagged for a closer look

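The strain difference of the nuclear-encoded subunits had opposite signs in the 2 sexes. The median log2 difference of BFMI minus B6N over 81 members was -0.103 in the males and 0.251 in the females, with 1 mouse of each line and sex. No replicates stand behind either value, and the difference between the medians was not tested. The strain by sex term of single genes called no member, with a smallest adjusted p of 0.169 for Cox7c.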

How the results depend on the processing

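No member was called between the F1 groups or between the sexes under any alternative, and the median of the F1 comparison ran from -0.01 to 0.12. Counts over all genes moved more, from 0 to 696 between the F1 groups, 320 to 1930 between the lines, 13 to 1410 for F1 males against the inbred mean and 34 to 582 between the sexes, against 24, 1332, 410 and 111. For BFMI against B6N, 1 member was called higher with DESeq2 and with 10 counts in every library, namely Ndufb8, and 1 with pseudogene reads added, namely Ndufa12. Members called lower came to 0 with limma under each of its settings, 1 with pseudogene reads added, and 0 to 2 without each library. Cox7c, which the main fit did not call, was among the members called lower in 3 of 22 alternatives. Its log2 fold change ran from -1.23 to 0.21 over the 22. The median of the strain comparison was -0.11 in males alone, and without each library it ran from -0.11 to 0.29, as it depended on which inbred mouse was left out. For F1 males against the inbred mean it was -0.032 with limma under each of its settings, and without each library from -0.13 to 0.28, with 1 member, Cox7c, called higher without the B6N male and 0 otherwise. For the sexes it ran from -0.21 to 0.185 without each library. Atp5g1 between BFMI and B6N changed sign to 0.14 with pseudogene reads added, and Atp5g2 between F1 and inbred mice to -0.14 and -0.16 with limma.

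The X-linked members lay so near 0 that their signs changed without being called. Between the F1 groups Ndufa1 was at 0.018 and Ndufb11 at 0.022 with library size only, and without each library Ndufa1 ran from -0.12 to 0.019, Ndufb11 from -0.12 to 0.015 and Cox7b from -0.10 to 0.19. Between BFMI and B6N Ndufa1 was at 0.016 with library size only, 0.079 without a filter and 0.0084 with inbred libraries only, and Ndufb11 at -0.0149 and -0.0151 with limma, -0.17 in males alone and -0.0061 with pseudogene reads added. Without each library Ndufa1 ran from -0.20 to 0.21, Ndufb11 from -0.18 to 0.24 and Cox7c from -1.23 to 0.21.

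Whether the offspring numbers pair the F1 males cannot be decided with 3 mice a group, and the main fit took no pairs. Deviations of same-numbered males correlated at 0.463, 0.0741 and 0.213, and those of differently numbered males at -0.425 to 0.283. The fit with the number as a replicate block called 0 members and 175 genes in all, against 24 without it. With 3 mice a group and a median standard error of 0.10, F1 differences of the size of the medians were not detectable.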
